A study of Mus musculus with 9 samples.

Results

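A set of 39 genes of the antiviral interferon response was followed in mouse MS1 endothelial cells that stably expressed TAZ4A, TAZ-CAMTA1 or neither. The genes were taken by symbol from the gene table that held 17565 symbols, and all 39 were found and passed the filter on low values, which left 12350 genes. By role, 7 are signalling factors, 9 are sensors of foreign nucleic acid or partners of such sensors, and 23 are effectors. In the libraries labelled TAZ4A, 29 of the 39 genes were higher than in control and 1 was lower, where 13.2% and 11.7% of all tested genes were. In the libraries labelled TAZ-CAMTA1, 17 were lower than in control and 8 were higher, where 15.3% and 16.8% of all tested genes were. The genes higher than control with TAZ4A and lower than control with TAZ-CAMTA1 numbered 14, a pattern that 1.48% of all tested genes showed. The 39 genes were chosen with earlier results of these data known, so these counts describe the list and do not test it.

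MS1 is an immortalized endothelial line from mouse pancreas. All 3 groups carried a lentiviral pCDH vector: control cells pCDH-puro, TAZ4A cells pCDH-TAZS4A and TAZ-CAMTA1 cells pCDH-TAZ-CAMTA1. TAZ is a transcriptional coactivator that the Hippo pathway restrains by phosphorylation, and TAZ4A is a mutant in which alanine replaces serines. The product of a gene fusion, TAZ-CAMTA1 occurs in most epithelioid hemangioendotheliomas, which are vascular sarcomas. Poly-A RNA of 3 libraries per group was sequenced. The labels do not say whether the replicates were separate cultures or whether a stable line was a clone or a pool, so the p-values measure only the spread between these libraries.

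Type I interferon binds a receptor of the chains IFNAR1 and IFNAR2, and the receptor's kinases phosphorylate STAT proteins. STAT2 and IRF9 are parts of the complex ISGF3, which binds the interferon-stimulated response element (ISRE) in promoters and turns on interferon-stimulated genes. Among these genes are sensors of viral RNA and DNA, which feed back on interferon production, effectors that block viral entry, replication or translation, and brakes such as USP18. Endothelial cells both respond to interferon and secrete chemokines such as CXCL10 under it.

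Promoters of 9 members are shown because the text returns to these genes. They were picked with the search results known, so the share of them with a match describes nothing beyond them. Isg15, Ifit1, Ifit3, Rsad2, Cmpk2, Ifi44 and Irf7 had higher means with TAZ4A and lower means with TAZ-CAMTA1 than in control, Ddx60 is a sensor that was higher with TAZ4A, and Cxcl10 was higher in both construct groups. The sequences are RefSeq's, on GRCm38.p6, each the 250 bases before the annotated start, read 5′ to 3′ on the gene's strand. Capitals mark a core of the ISRE, the letters GAAA and again GAAA with 2 bases of any kind between them, or its reverse complement. The windows are chr4:156200819-156201068 (minus strand) for Isg15, chr19:34640639-34640888 (plus) for Ifit1, chr19:34583279-34583528 (plus) for Ifit3, chr12:26456453-26456702 (minus) for Rsad2, chr12:26468965-26469214 (plus) for Cmpk2, chr3:151749911-151750160 (minus) for Ifi44, chr7:141266425-141266674 (minus) for Irf7, chr8:61927837-61928086 (plus) for Ddx60 and chr5:92348890-92349139 (minus) for Cxcl10.
Isg15: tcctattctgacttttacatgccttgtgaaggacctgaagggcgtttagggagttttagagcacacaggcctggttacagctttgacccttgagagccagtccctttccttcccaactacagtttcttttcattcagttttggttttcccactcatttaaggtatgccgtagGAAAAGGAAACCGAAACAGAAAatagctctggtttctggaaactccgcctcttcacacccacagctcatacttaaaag
Ifit1: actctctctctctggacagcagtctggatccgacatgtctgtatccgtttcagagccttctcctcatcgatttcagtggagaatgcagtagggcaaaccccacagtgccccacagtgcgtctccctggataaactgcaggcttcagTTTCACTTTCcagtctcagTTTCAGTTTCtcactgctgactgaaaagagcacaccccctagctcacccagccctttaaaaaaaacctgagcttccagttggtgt
Ifit3: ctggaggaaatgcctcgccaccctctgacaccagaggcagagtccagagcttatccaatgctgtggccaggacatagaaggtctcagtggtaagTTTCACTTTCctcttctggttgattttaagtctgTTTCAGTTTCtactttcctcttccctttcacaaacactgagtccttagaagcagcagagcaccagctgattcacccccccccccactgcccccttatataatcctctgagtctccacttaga
Rsad2: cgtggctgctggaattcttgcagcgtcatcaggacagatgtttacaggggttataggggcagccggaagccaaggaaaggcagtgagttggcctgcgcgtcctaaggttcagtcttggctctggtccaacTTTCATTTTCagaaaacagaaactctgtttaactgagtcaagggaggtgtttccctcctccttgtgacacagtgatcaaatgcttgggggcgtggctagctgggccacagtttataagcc
Cmpk2: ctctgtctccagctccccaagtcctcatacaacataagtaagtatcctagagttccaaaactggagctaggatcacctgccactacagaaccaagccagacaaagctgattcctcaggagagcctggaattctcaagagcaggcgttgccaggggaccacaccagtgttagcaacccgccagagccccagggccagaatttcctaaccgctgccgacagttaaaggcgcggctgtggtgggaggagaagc
Ifi44: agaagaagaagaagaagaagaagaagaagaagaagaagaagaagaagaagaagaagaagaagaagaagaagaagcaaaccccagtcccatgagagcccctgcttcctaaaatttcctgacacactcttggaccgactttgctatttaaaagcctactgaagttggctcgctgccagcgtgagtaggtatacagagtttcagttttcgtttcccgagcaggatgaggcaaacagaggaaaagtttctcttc
Irf7: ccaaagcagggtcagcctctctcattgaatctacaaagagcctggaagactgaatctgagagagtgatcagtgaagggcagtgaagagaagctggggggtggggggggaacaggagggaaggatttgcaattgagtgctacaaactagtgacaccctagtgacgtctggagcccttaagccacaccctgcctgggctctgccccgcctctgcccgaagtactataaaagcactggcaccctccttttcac
Ddx60: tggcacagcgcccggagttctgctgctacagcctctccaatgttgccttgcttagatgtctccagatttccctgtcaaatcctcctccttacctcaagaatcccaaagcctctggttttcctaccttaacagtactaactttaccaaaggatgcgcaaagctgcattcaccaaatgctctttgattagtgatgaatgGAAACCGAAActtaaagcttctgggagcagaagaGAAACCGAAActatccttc
Cxcl10: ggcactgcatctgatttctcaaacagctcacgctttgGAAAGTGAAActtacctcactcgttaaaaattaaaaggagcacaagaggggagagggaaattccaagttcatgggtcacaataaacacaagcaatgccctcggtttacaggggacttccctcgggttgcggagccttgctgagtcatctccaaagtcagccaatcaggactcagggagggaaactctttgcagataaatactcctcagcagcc

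In Isg15 the run in capitals holds 3 overlapping matches, which begin at -78, -72 and -66 from the start. Ifit1 has matches at -104 and -85, and Ifit3 at -156 and -122, all on the opposite strand. Rsad2 has 1 at -120 and Cxcl10 1 at -213, and Ddx60 has matches at -53 and -19. Cmpk2, the neighbour of Rsad2 on chromosome 12, shows none in its window, and neither do Ifi44 and Irf7. The search used both strands of the whole 300-base RefSeq window, 250 bases before to 50 bases after the start. Windows were matched for 30 of the 39 members, and 12 of the 30 (40.0%) held the letters, against 3.62% of 9207 matched tested genes and 3.44% of all 32851 windows. In 8 of the 12 a match lay before the start, and in Ddx58, Eif2ak2, Ifih1 and Trim21 it lay after it. The letters TTCNNNGAA (N for any base), a core of the gamma-activated site of promoters that respond to interferon gamma, were in 9 of 30 members (30.0%), 8.44% of matched tested genes and 8.3% of all windows. They overlapped the ISRE letters in 1 member window. Usp18, Dhx58, Zbp1, Mx1, Mx2, Rtp4, Parp9, Parp14 and Ifi27 were not in the promoter table. A match describes letters and not a bound site. Of the 14 genes higher with TAZ4A and lower with TAZ-CAMTA1, 11 had a window and 5 of these had the ISRE letters, namely Stat2, Ifih1, Ifit1, Ifit3 and Rsad2. Of the 5 genes higher in both construct groups, 4 had a window and Cxcl10 alone had the letters. Of the 10 higher with TAZ4A that did not pass with TAZ-CAMTA1, 7 had a window and 3 the letters. The 4 that passed in neither comparison with control all had a window, and 2 had the letters. Of the 3 that passed only as lower with TAZ-CAMTA1, 2 had a window and 1 the letters. Ifnar1 and Ifnar2 had windows without them. The 5 of 11 thus lie near the 40.0% of all matched members.

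The libraries held between 21966004 and 34224715 reads counted to genes. Values are CPM as deposited, that is gene counts scaled by the authors. Their sums per library ran from 976997 to 1028367, so they were not scaled to library size alone. TAZ-CAMTA1 replicate 2 stood apart: its log2 values correlated at 0.962 and 0.963 with the others of its group, against at least 0.9975 between every other pair of replicates within a group. Ribosomal protein genes took 3.86% of its CPM and 1.76% to 2.04% elsewhere, and multiply mapped reads were 30.6% of its junction reads against 20.8% to 22.2%. Most counts of genes that passed and most log2 differences that involve TAZ-CAMTA1 are therefore given with and without it. Counts of groups without overlap, junction reads, TPM values and the authors' calls include it. Mouse Wwtr1, the gene of TAZ, read 545, 536 and 570.3 CPM in control. It read 319, 320.4 and 334.5 CPM under the label TAZ4A and 492, 328 and 491 under TAZ-CAMTA1, so the row did not show higher TAZ expression under either label. Whether reads of the introduced sequence count toward this row is not given in the sources used here, and TAZ4A stands below for the libraries so labelled. Camta1 was 5.11, 3.41 and 3.63 CPM in control, 5.20, 4.74 and 4.79 with TAZ4A and 13.4, 12.5 and 13.5 with TAZ-CAMTA1.

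Endothelial markers were present in all groups. All 10 of 10 listed markers passed the filter, and their sum was 10670 to 10910 CPM in control, 7093 to 7328 with TAZ4A and 10120 to 11790 with TAZ-CAMTA1, so it was lowest in the group where the antiviral genes were highest. Of 12 listed blood markers 7 were in the table and their sum was at most 11.3 CPM in any library. The pan-leukocyte gene Ptprc had group means of at most 0.092 CPM, and Csf1r, of macrophages, at most 0.12. Lyz2, also a macrophage gene, was 0, 0 and 0.0313 CPM in control, 1.92, 1.23 and 1.2 with TAZ4A and 5.99, 8.87 and 5.62 with TAZ-CAMTA1, and it carried most of the rise of the blood sum. The fibroblast and mural list, with 7 of 7 in the table, summed to 5.23 to 6.36 CPM in control, 15.5 to 16.8 with TAZ4A and 10.2 to 16.6 with TAZ-CAMTA1. The epithelial and pancreatic list, with 5 of 9 in the table, summed to 20.2 to 23.6, 18.9 to 20.2 and 20.1 to 47.5 CPM in the same order, nearly all of it Krt18. The part of these shifts in the antiviral results was not tested. In these bulk libraries fewer expressing cells and less RNA per cell cannot be told apart.

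**Figure D1:**
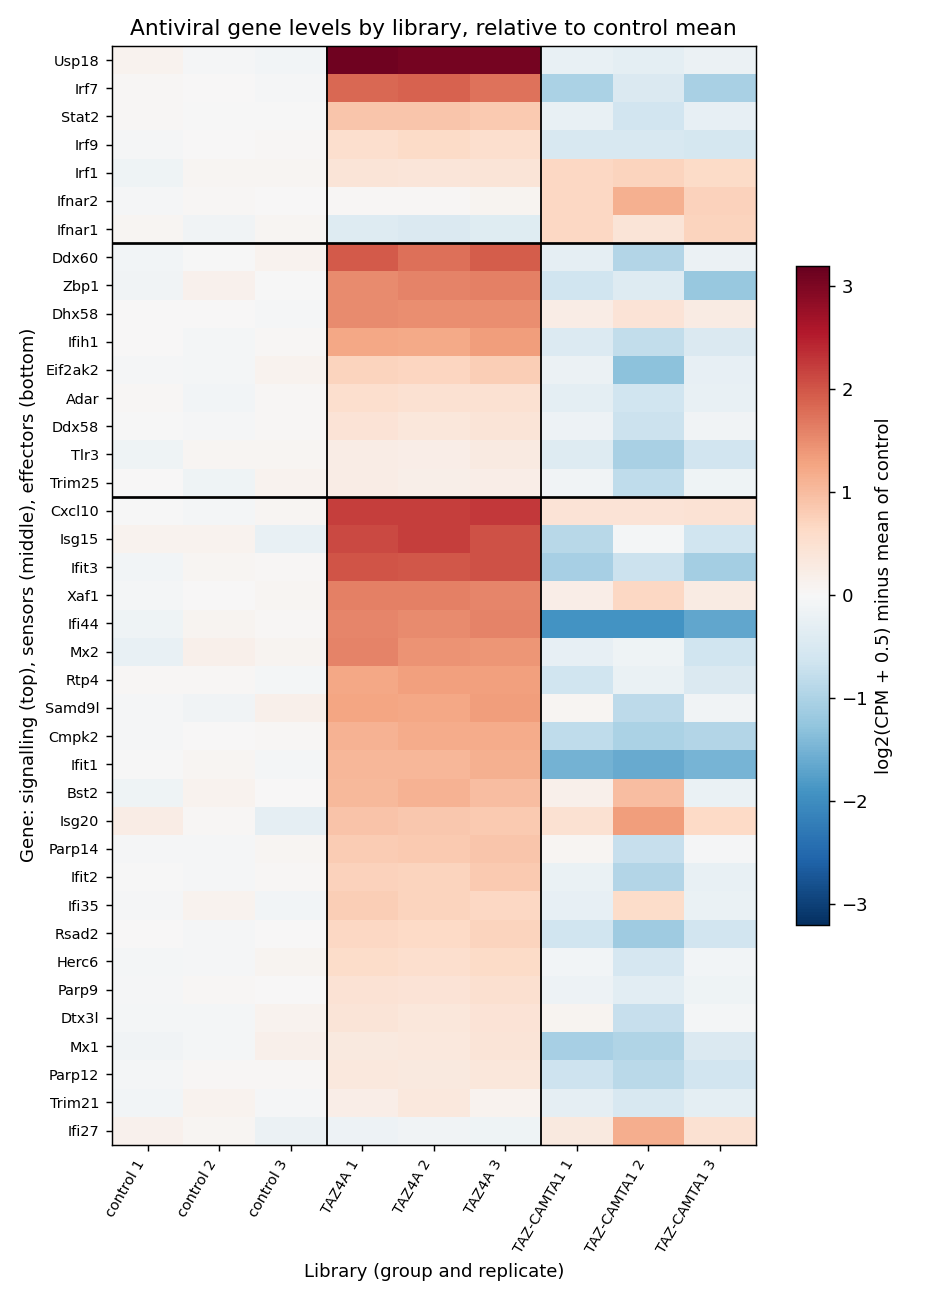
Level of each of the 39 genes in each library, as log2(CPM + 0.5) minus the control mean of that gene; columns are libraries, rows are genes ordered by role and then by the TAZ4A difference, red is above control and blue below. The 3 TAZ4A columns are red for nearly every gene, and the TAZ-CAMTA1 columns are mostly blue, with the receptor genes and Irf1 among the exceptions.

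The summed CPM of the 39 genes was 2651, 2659 and 2737 in the control libraries and 4573, 4566 and 4626 with TAZ4A. It was 2471, 2477 and 2417 with TAZ-CAMTA1, including replicate 2. The TAZ4A sums lie far above the control sums and the TAZ-CAMTA1 sums lie a little below them. Differences below are log2 fold changes on the log2(CPM + 0.5) scale ± standard error, from limma fitted to all 12350 genes and 9 libraries; they understate the change of low genes. A gene passed at a Benjamini-Hochberg adjusted p under 0.05, and n = 3 in each group.

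For TAZ4A against control the median difference was 0.84 among the 39 genes and -0.01 over all tested genes. In 37 of the 39 all 3 TAZ4A libraries lay above all 3 control libraries, which held for 30.4% of all genes. For TAZ-CAMTA1 against control the median was -0.37 among the 39 and -0.03 over all genes (-0.24 and -0.02 without replicate 2), and in 23 of the 39 all TAZ-CAMTA1 libraries lay below all controls, against 24.7% of all genes. Set directly against TAZ4A, 33 of the 39 were lower with TAZ-CAMTA1 and 4 were higher, where 18.5% and 19.4% of all genes were, with a median of -1.20 against -0.02. The comparisons of either construct with control share the 3 control libraries.

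Leaving out TAZ-CAMTA1 replicate 2 lowered the fitted spread and raised the counts. TAZ4A against control then gave 35 higher and 1 lower, where 28.1% and 30.3% of all genes passed. TAZ-CAMTA1 against control gave 8 higher and 25 lower, where 28.5% and 32.3% passed. TAZ-CAMTA1 against TAZ4A gave 4 higher and 35 lower, where 30.8% and 32.2% passed, and Isg20 and Bst2 were the members added as lower. All 17 genes called lower and all 8 called higher with TAZ-CAMTA1 on 9 libraries were called again without replicate 2. The 8 that were added as lower were Ddx58, Eif2ak2, Ddx60, Ifit2, Isg15, Mx2, Parp9 and Ifi35. The 6 that were added as higher with TAZ4A were Ddx58, Tlr3, Eif2ak2, Trim25, Trim21 and Dtx3l; their TAZ4A differences come from the control and TAZ4A libraries and did not change, while the spread fitted over all libraries and the adjusted p-values did.

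Each library was also left out on its own, and some calls close to the threshold were lost; the libraries are named by group and replicate number, each left out singly. For TAZ4A against control these were Ifnar1 (without control 1, control 3 or TAZ4A 2; adjusted p = 0.051 to 0.053), Ifit2 (without control 1, control 2, TAZ4A 1 or TAZ4A 3; adjusted p = 0.0512 to 0.0611), Isg20 (without control 2, control 3, TAZ4A 1, TAZ4A 2 or TAZ4A 3; adjusted p = 0.0585 to 0.0778), Bst2 (without control 1, control 3, TAZ4A 1, TAZ4A 2 or TAZ4A 3; adjusted p = 0.0545 to 0.0708), Parp12 (without control 1, TAZ4A 1 or TAZ4A 3; adjusted p = 0.0646 to 0.0708) and Ifi35 (without control 1, control 2, control 3, TAZ4A 1, TAZ4A 2 or TAZ4A 3; adjusted p = 0.0731 to 0.114). For TAZ-CAMTA1 against control they were Stat2 (without control 1, control 2, control 3, TAZ4A 1 or TAZ4A 2; adjusted p = 0.0501 to 0.0861), Usp18 (without control 1, control 2, control 3, TAZ4A 1, TAZ4A 2, TAZ4A 3 or TAZ-CAMTA1 1; adjusted p = 0.0687 to 0.15), Dhx58 (without control 2 or control 3; adjusted p = 0.0513 to 0.0665), Zbp1 (without control 2 or control 3; adjusted p = 0.0527 to 0.0618), Adar (without control 1 or control 3; adjusted p = 0.074 to 0.0776), Isg20 (without control 2 or control 3; adjusted p = 0.0596 to 0.0834), Xaf1 (without control 1, control 2, control 3, TAZ4A 1, TAZ4A 2 or TAZ4A 3; adjusted p = 0.0689 to 0.128), Rtp4 (without control 1 or control 2; adjusted p = 0.0603 to 0.0618), Trim21 (without control 2 or control 3; adjusted p = 0.0618 to 0.0858) and Ifi27 (without control 1, control 2, control 3, TAZ4A 1, TAZ4A 2 or TAZ4A 3; adjusted p = 0.0613 to 0.129). Between the constructs they were Irf1 (without TAZ4A 1, TAZ4A 2, TAZ4A 3 or TAZ-CAMTA1 1; adjusted p = 0.0559 to 0.0862), Trim25 (without control 1, TAZ4A 1, TAZ4A 2 or TAZ4A 3; adjusted p = 0.0549 to 0.0926), Dtx3l (without TAZ4A 1, TAZ4A 2 or TAZ4A 3; adjusted p = 0.0672 to 0.0838) and Ifi35 (without control 1, control 2, control 3, TAZ4A 1, TAZ4A 2, TAZ4A 3, TAZ-CAMTA1 1 or TAZ-CAMTA1 3; adjusted p = 0.0517 to 0.0993). The other members called in each comparison passed in all 9 of these fits.

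Of the signalling factors, Irf7, Irf9, Stat2 and Usp18 rose with TAZ4A and fell with TAZ-CAMTA1, and Ifnar1 did the reverse. With TAZ4A 5 of 7 rose and 1 fell, where 13.2% and 11.7% of all tested genes did. With TAZ-CAMTA1 4 fell and 3 rose, where 15.3% and 16.8% did. The same counts came out without replicate 2. In that fit 28.1% of all genes rose and 30.3% fell with TAZ4A, and 32.3% fell and 28.5% rose with TAZ-CAMTA1. Irf7, which drives amplification of type I interferon, was 37.3, 36.6 and 35.2 CPM in control, 130.2, 136 and 122.5 with TAZ4A and 17.8, 26.4 and 17.6 with TAZ-CAMTA1. No group overlapped another. It rose with TAZ4A (1.81 ± 0.15, adjusted p = 4e-05) and fell with TAZ-CAMTA1 (-0.83 ± 0.15, adjusted p = 0.0032; -1.02 without replicate 2). Irf9, the DNA-binding part of ISGF3, read 58.0, 59.8 and 61.6 CPM in control, 86.5, 91.1 and 86.8 with TAZ4A and 42.1, 41.7 and 40.5 with TAZ-CAMTA1. The groups stood in the same order without overlap, with a rise of 0.56 ± 0.06 (adjusted p = 0.00029) and a TAZ-CAMTA1 difference of -0.53 ± 0.06 (adjusted p = 0.00046; -0.53 without replicate 2). Stat2, its partner, was at 41.0, 39.6 and 39.7 CPM, 74.6, 75.0 and 72.4 and 34.2, 26 and 33.3 in control, TAZ4A and TAZ-CAMTA1. Its difference was 0.88 ± 0.10 (adjusted p = 0.00037) for TAZ4A and -0.37 ± 0.10 (adjusted p = 0.027; -0.24 without replicate 2) for TAZ-CAMTA1, where replicate 2 was the lowest library.

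Usp18, which removes ISG15 from proteins and damps signalling at IFNAR2, showed the largest rise of all members. It was 9.15, 8.25 and 7.99 CPM in control, 76.5, 74.2 and 74.6 with TAZ4A and 7.04, 6.75 and 7.41 with TAZ-CAMTA1. Its difference was 3.08 ± 0.08 (adjusted p = 4.9e-08) for TAZ4A, and the smaller fall with TAZ-CAMTA1 was -0.24 ± 0.08 (adjusted p = 0.045; -0.21 without replicate 2).

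Ifnar1 and Ifnar2 encode the receptor chains. Ifnar1 was 178, 159.6 and 178 CPM in control, 128, 124 and 132 with TAZ4A and 272, 228 and 282 with TAZ-CAMTA1, with no overlap between groups in the gene table. It fell with TAZ4A (-0.43 ± 0.10, adjusted p = 0.011) and rose with TAZ-CAMTA1 (0.60 ± 0.10, adjusted p = 0.0019; 0.69 without replicate 2), and it was the only member that fell with TAZ4A. In reads across its splice junctions the groups overlapped: they were 90.2, 75.7 and 96.4 RPM (scaled to the library's junction reads) in control, 78.2, 76.6 and 78.8 with TAZ4A and 144.5, 45.7 and 159.4 with TAZ-CAMTA1, and the exact two-sided permutation p was 0.4 for each construct against control. Ifnar2 read 62.9, 66.3 and 66.0 CPM in control, 66.5, 66.4 and 69.7 with TAZ4A and 102.5, 143 and 109 with TAZ-CAMTA1. It rose with TAZ-CAMTA1 (0.84 ± 0.12, adjusted p = 0.0011; 0.69 without replicate 2), with replicate 2 the highest library, and its TAZ4A difference was 0.05 ± 0.12 (adjusted p = 0.81). Irf1, a transcription factor induced by interferon gamma and by inflammatory signals, rose in both groups. It was 26.2, 30.1 and 29.9 CPM in control, 38.3, 37.9 and 38.1 with TAZ4A and 46.0, 47.4 and 44.0 with TAZ-CAMTA1, a difference of 0.40 ± 0.08 (adjusted p = 0.0048) for the first and 0.67 ± 0.08 (adjusted p = 0.00034; 0.64 without replicate 2) for the second. Irf1 was also higher with TAZ-CAMTA1 than with TAZ4A, by 0.26 ± 0.08 (adjusted p = 0.027; 0.24 without replicate 2).

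**Figure D2:**
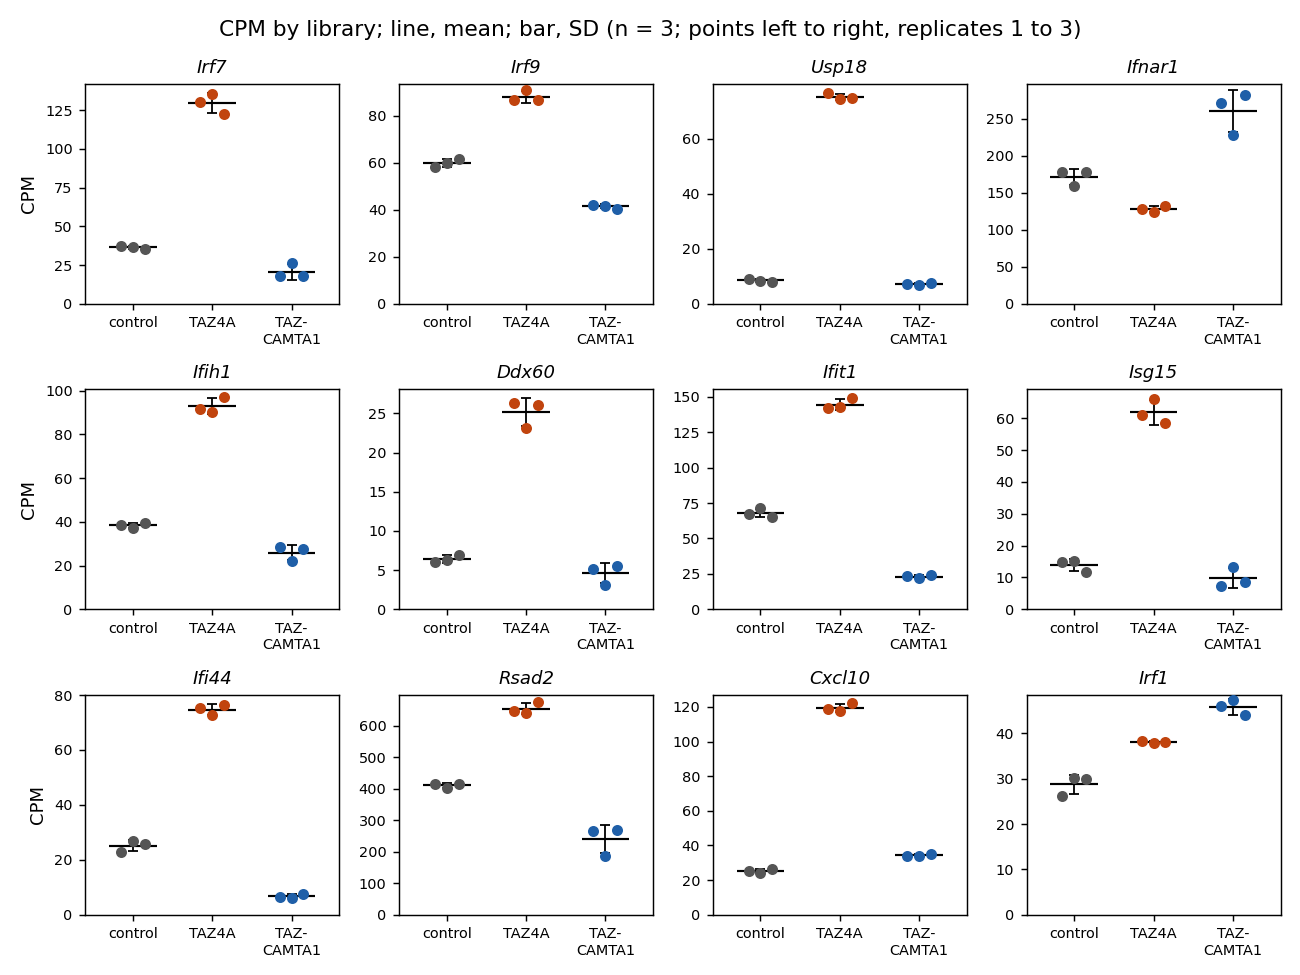
CPM of 12 members in every library, with a linear axis from 0 in each panel; points are the 3 replicates, the horizontal line is the group mean and the bar is its SD. Irf7, Irf9, Ifih1, Ifit1, Ifi44 and Rsad2 step down from TAZ4A to control to TAZ-CAMTA1, Ifnar1 steps up, and Irf1 and Cxcl10 lie above control in both construct groups.

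Among the 9 sensors, 5 rose with TAZ4A and none fell, where 13.2% and 11.7% of all tested genes did. With TAZ-CAMTA1 4 fell and 1 rose, where 15.3% and 16.8% did. All 9 were lower with TAZ-CAMTA1 than with TAZ4A, where 18.5% of all genes were. Without replicate 2, 9 rose with TAZ4A, where 28.1% of all genes did. In that fit 7 fell and 1 rose with TAZ-CAMTA1, where 32.3% and 28.5% did. Ifih1 encodes MDA5, a sensor of long double-stranded RNA. It was 38.5, 37.0 and 39.6 CPM in control, 91.8, 90.3 and 97.0 with TAZ4A and 28.4, 21.9 and 27.5 with TAZ-CAMTA1. The groups did not overlap, and the differences were 1.27 ± 0.10 (adjusted p = 3.7e-05) and -0.57 ± 0.10 (adjusted p = 0.0035; -0.45 without replicate 2). Ddx58 encodes RIG-I, the sensor of RNA with a 5′ triphosphate, and was more abundant than Ifih1 per length, at 65.0 ± 3.02 against 16.9 ± 0.901 TPM in control (mean ± SD; TPM is scaled by transcript length as well as library size). It was 130.4, 129.5 and 136 CPM in control, 179, 169 and 175 with TAZ4A and 118, 81.3 and 121 with TAZ-CAMTA1. Neither the TAZ4A difference of 0.40 ± 0.14 (adjusted p = 0.075) nor the TAZ-CAMTA1 difference of -0.33 ± 0.14 (adjusted p = 0.11; -0.15 without replicate 2) passed, while without replicate 2 both did.

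Dhx58 encodes LGP2, a helicase of the same family that lacks the signalling domain. It was 14.1, 13.9 and 13.5 CPM in control, 40.5, 40.0 and 39.8 with TAZ4A and 16.3, 18.8 and 16.7 with TAZ-CAMTA1. Unlike the other sensors it was above control in both groups, by 1.5 ± 0.08 (adjusted p = 2.2e-06) and by 0.31 ± 0.08 (adjusted p = 0.016; 0.24 without replicate 2). Ddx60, a helicase linked to RIG-I signalling, read 6.04, 6.31 and 6.96 CPM in control, 26.3, 23.1 and 26 with TAZ4A and 5.19, 3.12 and 5.54 with TAZ-CAMTA1. It rose by 1.89 ± 0.18 (adjusted p = 0.00012) with TAZ4A; the TAZ-CAMTA1 difference was -0.47 ± 0.18 (adjusted p = 0.082; -0.24 without replicate 2).

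Zbp1, a sensor of Z-form nucleic acid that can trigger cell death, was scarce. It had 14, 29 and 24 reads in the control libraries, 99, 112 and 108 with TAZ4A and 10, 13 and 1 with TAZ-CAMTA1. It rose by 1.57 ± 0.19 (adjusted p = 0.00039) with TAZ4A and differed by -0.75 ± 0.19 (adjusted p = 0.016; -0.92 without replicate 2) with TAZ-CAMTA1. Tlr3, the endosomal receptor for double-stranded RNA, was 26.6, 30.5 and 30.5 CPM in control, 34.4, 34.0 and 35.5 with TAZ4A and 21.9, 13.9 and 18.8 with TAZ-CAMTA1. It fell with TAZ-CAMTA1 (-0.69 ± 0.15, adjusted p = 0.0088; -0.51 without replicate 2), and the TAZ4A difference was 0.24 ± 0.15 (adjusted p = 0.3). Eif2ak2, which encodes the kinase PKR, was 115, 112 and 126 CPM in control, 194, 191 and 203 with TAZ4A and 103, 47.3 and 98.2 with TAZ-CAMTA1. Replicate 2 was the lowest of the TAZ-CAMTA1 libraries, and the differences of 0.74 ± 0.26 (adjusted p = 0.073) and -0.58 ± 0.26 (adjusted p = 0.12; -0.22 without replicate 2) did not pass on all 9 libraries, while both passed without that library. Trim25, the ubiquitin ligase that activates RIG-I, had a TAZ4A difference of 0.21 ± 0.17 (adjusted p = 0.45) and did not pass with TAZ-CAMTA1 with or without replicate 2 (-0.36 ± 0.17, adjusted p = 0.15; -0.13 without replicate 2).

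Adar edits adenosines in double-stranded RNA and so keeps the cell's own RNA from being sensed. It was 101, 92.6 and 100.4 CPM in control, 143, 138 and 136 with TAZ4A and 78.6, 62.2 and 82.5 with TAZ-CAMTA1, with differences of 0.51 ± 0.11 (adjusted p = 0.009) and -0.40 ± 0.11 (adjusted p = 0.022; -0.28 without replicate 2). The gene has a long form, known to be induced by interferon, and a short form made in most cells. In GENCODE vM21 on GRCm38 the intron chr3:89730839-89734841 follows a first exon that holds a start codon, that of the long form. Its uniquely mapped junction reads numbered 8, 8 and 4 in control, 18, 17 and 15 with TAZ4A and 7, 1 and 5 with TAZ-CAMTA1. Scaled as RPM to the uniquely mapped junction reads of each library, the means were 0.827 ± 0.418, 1.74 ± 0.161 and 0.545 ± 0.356 (SD). TAZ4A lay above both other groups without overlap, with an exact permutation p of 0.1, two-sided, the smallest that 3 against 3 can give; TAZ-CAMTA1 against control gave an exact permutation p of 0.4. The intron chr3:89715151-89734841, whose transcript starts translation in its next exon, had 2, 4 and 8 reads in control, 3, 1 and 6 with TAZ4A and 3, 0 and 2 with TAZ-CAMTA1. These groups overlapped. With so few reads the 2 forms cannot be compared closely.

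Of the 23 effectors, 19 rose with TAZ4A and none fell, where 13.2% and 11.7% of all tested genes did. With TAZ-CAMTA1 9 fell and 4 rose, where 15.3% and 16.8% did, so the 4 lie near the background. Set against TAZ4A, 20 were lower and 1 higher with TAZ-CAMTA1, where 18.5% and 19.4% were. Without replicate 2 the TAZ-CAMTA1 counts against control were 14 lower and 4 higher, where 32.3% and 28.5% of all genes passed. Ifit1, which binds viral RNA that lacks cap methylation, was 67.3, 71.4 and 65.4 CPM in control, 142, 142.5 and 149 with TAZ4A and 23.4, 21.8 and 24.1 with TAZ-CAMTA1. The groups were far apart, at 1.08 ± 0.07 (adjusted p = 1.2e-05) for TAZ4A and -1.54 ± 0.07 (adjusted p = 3.1e-06; -1.5 without replicate 2) for TAZ-CAMTA1. Its relative Ifit2 read 116, 115 and 121 CPM in control, 197, 191 and 208.5 with TAZ4A and 101.5, 60.6 and 99.8 with TAZ-CAMTA1. Ifit2 rose by 0.76 ± 0.18 (adjusted p = 0.015) with TAZ4A; the TAZ-CAMTA1 difference was -0.46 ± 0.18 (adjusted p = 0.082; -0.22 without replicate 2). Ifit3 was 24.1, 26.9 and 26.3 CPM in control, 106, 104 and 107 with TAZ4A and 12.0, 15.9 and 11.8 with TAZ-CAMTA1, with differences of 2.02 ± 0.11 (adjusted p = 5.2e-06) and -0.95 ± 0.11 (adjusted p = 0.00046; -1.08 without replicate 2). Ifit3 has the near copy Ifit3b beside it on chromosome 19, so its values are uncertain.

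Ifi44, an interferon-induced gene that restrains viral replication, showed the largest fall with TAZ-CAMTA1. It was 22.9, 26.9 and 25.7 CPM in control, 75.2, 72.7 and 76.4 with TAZ4A and 6.30, 6.28 and 7.59 with TAZ-CAMTA1. Its differences were 1.56 ± 0.10 (adjusted p = 8e-06) for TAZ4A, -1.83 ± 0.10 (adjusted p = 5.7e-06; -1.79 without replicate 2) for TAZ-CAMTA1 and -3.39 ± 0.10 (adjusted p = 1e-07; -3.34 without replicate 2) between the constructs. Rsad2 encodes viperin, which makes a chain-terminating nucleotide, and Cmpk2 encodes a kinase that supplies it with substrate. They lie side by side on chromosome 12, at chr12:26442746-26456452 and chr12:26469204-26479837, on opposite strands. Rsad2 was 415, 402 and 416 CPM in control, 647, 642 and 674.5 with TAZ4A and 264.5, 188 and 269 with TAZ-CAMTA1, differences of 0.67 ± 0.13 (adjusted p = 0.0058) and -0.79 ± 0.13 (adjusted p = 0.0023; -0.62 without replicate 2). Cmpk2 was 54.0, 56.0 and 56.5 CPM in control, 120.4, 127 and 126 with TAZ4A and 31.3, 27.2 and 29.0 with TAZ-CAMTA1, differences of 1.16 ± 0.07 (adjusted p = 9.1e-06) and -0.92 ± 0.07 (adjusted p = 5.4e-05; -0.87 without replicate 2). Both genes of the pair kept the order TAZ-CAMTA1, control, TAZ4A without overlap.

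Isg15 encodes a ubiquitin-like protein that is joined to other proteins and is also secreted. It was 14.9, 15 and 11.7 CPM in control, 60.9, 66.1 and 58.4 with TAZ4A and 7.19, 13.2 and 8.63 with TAZ-CAMTA1. It rose with TAZ4A (2.12 ± 0.20, adjusted p = 0.0001). The TAZ-CAMTA1 difference was -0.53 ± 0.20 (adjusted p = 0.075; -0.77 without replicate 2), and the value of replicate 2 fell among the controls. Herc6, the main ligase for Isg15 in mouse, was 35.3, 35.7 and 39.4 CPM in control, 55.3, 54.0 and 56.4 with TAZ4A and 34.3, 25.2 and 34.5 with TAZ-CAMTA1, a TAZ4A rise of 0.58 ± 0.12 (adjusted p = 0.0084) and a TAZ-CAMTA1 difference of -0.24 ± 0.12 (adjusted p = 0.17; -0.09 without replicate 2). Bst2, or tetherin, which holds budding virus at the membrane, was the most abundant member per length at 948 ± 71.9 TPM in control. It was 273, 323 and 300.3 CPM in control, 614, 645 and 596 with TAZ4A and 332, 595 and 259 with TAZ-CAMTA1. It rose with TAZ4A (1.05 ± 0.26, adjusted p = 0.018), and its TAZ-CAMTA1 difference was 0.32 ± 0.26 (adjusted p = 0.37; -0.02 without replicate 2).

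The chemokine gene Cxcl10, whose product draws T cells, was 25.1, 24.2 and 26.3 CPM in control, 119, 118 and 122 with TAZ4A and 34.2, 34.1 and 35.0 with TAZ-CAMTA1. Both construct groups lay above control without overlap, by 2.23 ± 0.07 (adjusted p = 9.7e-08) and 0.45 ± 0.07 (adjusted p = 0.0011; 0.45 without replicate 2), and TAZ-CAMTA1 lay below TAZ4A by a difference of -1.78 ± 0.07 (adjusted p = 3.8e-07; -1.77 without replicate 2). Isg20, an exonuclease that degrades RNA, was 4.97, 4.28 and 3.32 CPM in control, 8.26, 7.87 and 7.80 with TAZ4A and 5.99, 11.2 and 6.76 with TAZ-CAMTA1. It rose by 0.87 ± 0.22 (adjusted p = 0.02) with TAZ4A and by 0.82 ± 0.22 (adjusted p = 0.022, and 0.56 without replicate 2) with TAZ-CAMTA1. Between the constructs the difference was -0.05 ± 0.22 (adjusted p = 0.87). Without replicate 2 that difference was -0.30 and passed as lower with TAZ-CAMTA1 (adjusted p = 0.047). Xaf1, linked to cell death, was also above control in both, by 1.60 ± 0.12 (adjusted p = 2.5e-05) and 0.38 ± 0.12 (adjusted p = 0.042; 0.23 without replicate 2). Ifi27 was the effector with no rise under TAZ4A in its means. It was 138, 132 and 110 CPM in control, 112, 116 and 114 with TAZ4A and 158, 283 and 175.5 with TAZ-CAMTA1, with differences of -0.14 ± 0.20 (adjusted p = 0.69) and 0.66 ± 0.20 (adjusted p = 0.037; 0.40 without replicate 2). Replicate 2 was its highest library.

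The dynamin-like GTPases Mx1 and Mx2, which trap viral capsids, were at low levels. Mx2, annotated as a polymorphic pseudogene in GENCODE vM21, was 4.60, 6.19 and 5.92 CPM in control, 17.5, 15.9 and 15.7 with TAZ4A and 4.54, 4.97 and 3.40 with TAZ-CAMTA1, with a TAZ4A rise of 1.48 ± 0.15 (adjusted p = 0.00016) and a TAZ-CAMTA1 difference of -0.34 ± 0.15 (adjusted p = 0.12; -0.44 without replicate 2). Mx1 had 23, 38 and 45 reads in control, 52, 56 and 58 with TAZ4A and 10, 11 and 17 with TAZ-CAMTA1. It fell with TAZ-CAMTA1 (-0.83 ± 0.17, adjusted p = 0.006; -0.76 without replicate 2) and its TAZ4A difference was 0.36 ± 0.17 (adjusted p = 0.17). Samd9l, a restriction factor that slows translation, rose by 1.27 ± 0.21 (adjusted p = 0.0022) with TAZ4A and differed by -0.30 ± 0.21 (adjusted p = 0.3; -0.03 without replicate 2) with TAZ-CAMTA1.

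Parp12, Parp14 and Parp9 encode members of the ADP-ribosyltransferase family. Parp12 was 66.6, 71.2 and 71.0 CPM in control, 88.6, 86.1 and 89.9 with TAZ4A and 43.5, 38.1 and 45.6 with TAZ-CAMTA1, with a rise of 0.34 ± 0.08 (adjusted p = 0.016) and a TAZ-CAMTA1 difference of -0.71 ± 0.08 (adjusted p = 0.00035; -0.64 without replicate 2). Parp14 rose with TAZ4A by 0.84 ± 0.19 (adjusted p = 0.011) and Parp9 by 0.48 ± 0.08 (adjusted p = 0.0019). Their TAZ-CAMTA1 differences were -0.24 ± 0.19 (adjusted p = 0.36; 0.02 without replicate 2) and -0.21 ± 0.08 (adjusted p = 0.063; -0.15 without replicate 2). Dtx3l, the ligase that pairs with the Parp9 protein, had a TAZ4A difference of 0.41 ± 0.19 (adjusted p = 0.16) and a TAZ-CAMTA1 difference of -0.23 ± 0.19 (adjusted p = 0.37; 0.01 without replicate 2). Parp9 and Dtx3l overlap on opposite strands of chromosome 16, and whether the counting used strand is not given in the sources used here, so their shared reads cannot be told apart. Rtp4 rose by 1.29 ± 0.11 (adjusted p = 5.2e-05) with TAZ4A and had a TAZ-CAMTA1 difference of -0.43 ± 0.11 (adjusted p = 0.017; -0.55 without replicate 2). Ifi35 rose with TAZ4A (0.71 ± 0.21, adjusted p = 0.037). Its TAZ-CAMTA1 difference was 0.04 ± 0.21 (adjusted p = 0.9; -0.24 without replicate 2). Trim21, which targets antibody-coated virus, fell with TAZ-CAMTA1 (-0.38 ± 0.10, adjusted p = 0.022; -0.30 without replicate 2), while its TAZ4A difference was 0.23 ± 0.10 (adjusted p = 0.15).

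**Figure D3:**
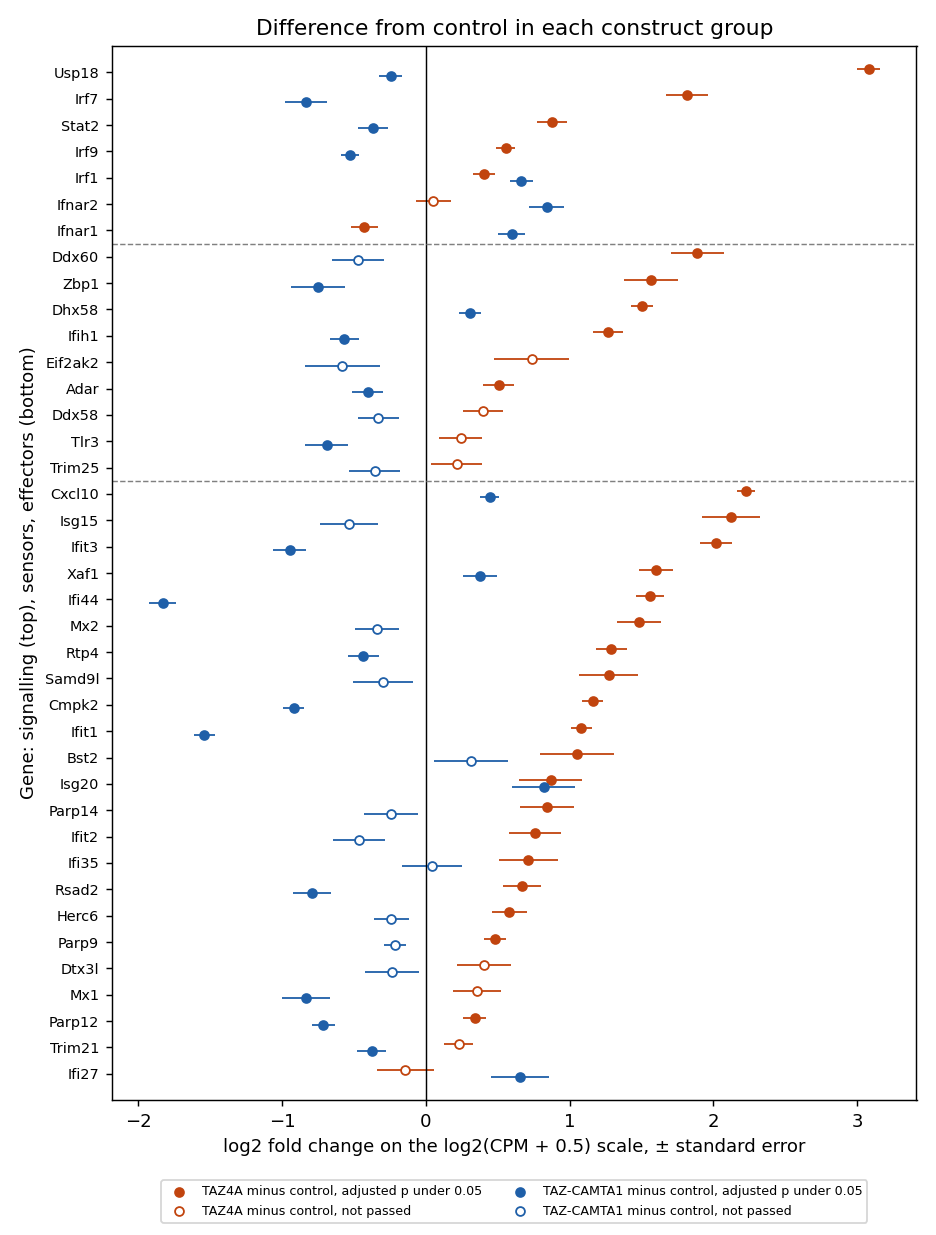
Log2 fold change of each gene against control, on the log2(CPM + 0.5) scale with its standard error, for TAZ4A and for TAZ-CAMTA1; both share the same control libraries, and filled points passed an adjusted p under 0.05. From 3.08 for Usp18 downward the TAZ4A points lie right of 0 in all but Ifnar1 and Ifi27, and the TAZ-CAMTA1 points reach -1.83 for Ifi44 on the left and 0.84 for Ifnar2 on the right.

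The 14 members that were higher than control with TAZ4A and lower than control with TAZ-CAMTA1, both at an adjusted p under 0.05, were the signalling genes Stat2, Irf9, Irf7 and Usp18, the sensors Ifih1, Zbp1 and Adar, and the effectors Ifit1, Ifit3, Rsad2, Cmpk2, Rtp4, Parp12 and Ifi44. Without TAZ-CAMTA1 replicate 2 the number was 24, where 5.48% of all genes met the rule, and all 14 were among the 24. The 10 that were added were Ddx58, Tlr3, Eif2ak2, Ddx60, Ifit2, Isg15, Mx2, Trim21, Parp9 and Ifi35. Without control replicate 1 the number was 9, in a fit where fewer of all 12350 genes passed in either direction. These were 2153 with TAZ4A and 2846 with TAZ-CAMTA1, against 3077 and 3966 with all libraries. The rule was met in each of the 22 other settings tried by 8 genes, namely Irf9, Irf7, Ifih1, Ifit1, Ifit3, Rsad2, Cmpk2 and Ifi44. How many of all tested genes met it in every setting was not counted.

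Another 5 members were above control in both construct groups (Irf1, Dhx58, Isg20, Xaf1 and Cxcl10). A further 10 were higher with TAZ4A and did not pass with TAZ-CAMTA1, 3 were lower with TAZ-CAMTA1 and did not pass with TAZ4A (Tlr3, Mx1 and Trim21), and 4 passed in neither (Ddx58, Eif2ak2, Trim25 and Dtx3l). Ifnar1 fell with TAZ4A and rose with TAZ-CAMTA1, and Ifnar2 and Ifi27 rose with TAZ-CAMTA1 and did not pass with TAZ4A. The shares of all tested genes in these further classes were not counted, so their counts describe the 39 genes only. By group means alone the order was TAZ-CAMTA1, control, TAZ4A from low to high in 29 of the 39 genes. It was control, TAZ-CAMTA1, TAZ4A in 6, control, TAZ4A, TAZ-CAMTA1 in 2, and TAZ4A, control, TAZ-CAMTA1 in 2. These counts include replicate 2, and the same orders were not counted over all genes. Without replicate 2 the TAZ-CAMTA1 mean lay below control for Bst2 (295.4 against 298.8 CPM) and Ifi35 (21.97 against 26.01). It then lay above control for Dtx3l (44.79 against 44.37) and Parp14 (50.73 against 50.14).

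The difference that TAZ-CAMTA1 replicate 2 made to a member followed the length of its transcript. Length was read from the ratio of CPM to TPM and set relative to the median tested gene. Across the 39 genes, which share the libraries, Spearman's rho between this length and the level in replicate 2 minus the mean of replicates 1 and 3 was -0.868, and over 12247 tested genes it was -0.727. With all tested genes split evenly into short, middle and long, 8 of the 10 short members were higher in replicate 2, as were 7 of the 15 middle ones and none of the 14 long ones. Bst2, at 0.265 of the median length, was higher in replicate 2 by 1.02 log2 units, and Isg15, at 0.261, by 0.71. The long genes Eif2ak2 and Samd9l, at 1.49 and 1.84 of the median length, were lower there by -1.08 and -0.80. Ifit1, Ifi44 and Irf9, near the median length, differed by -0.12, -0.13 and 0.02, small beside their differences from control. A relation with length was also present between replicates of the control and TAZ4A groups. For the 39 genes rho was -0.634 and -0.616 in replicate 2 of control and TAZ4A. It was 0.665 and 0.5 in replicate 3 and -0.072 and 0.088 in replicate 1. Over all genes rho lay between -0.451 and 0.456 in these groups. In TAZ-CAMTA1 replicates 1 and 3 it was 0.796 and 0.774 for the 39 genes. Replicate 2 was thus negative and replicate 3 positive in every group. The values within a group depend on each other. The part of transcript length in the differences between groups was not tested.

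**Figure D4:**
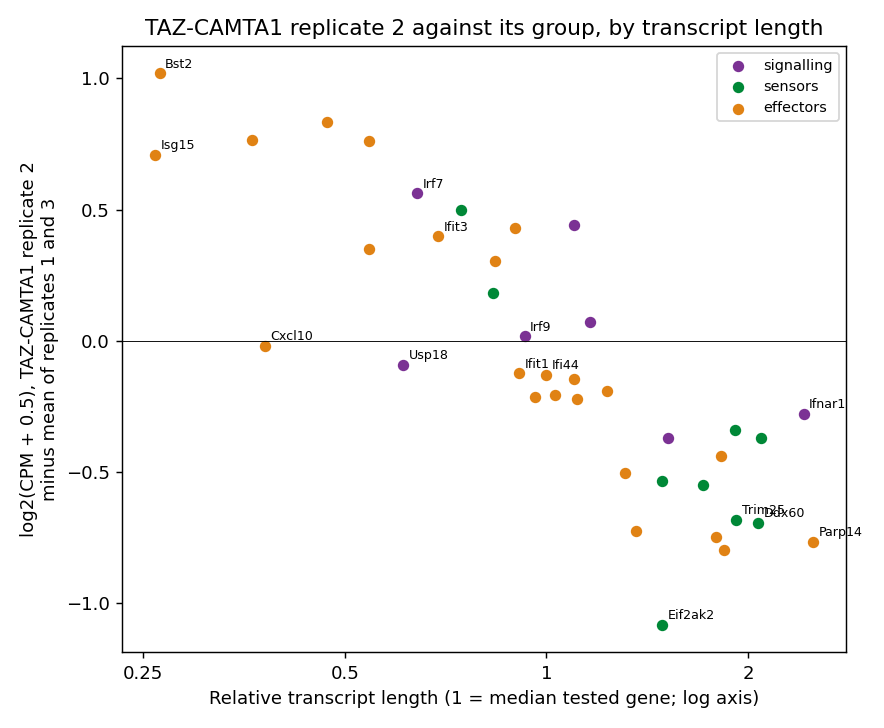
Level of each of the 39 genes in TAZ-CAMTA1 replicate 2 minus the mean of replicates 1 and 3, on the log2(CPM + 0.5) scale, against relative transcript length on a log axis; colours mark the role. Points fall from 1.02 for the short Bst2 to -1.08 for the longer Eif2ak2.

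**Figure D5:**
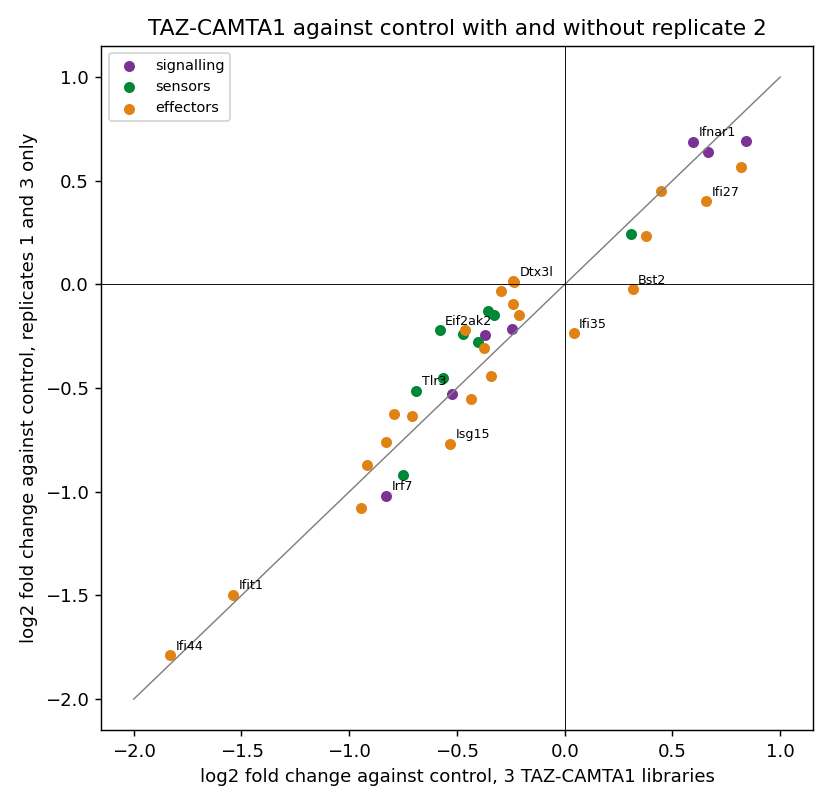
Log2 fold change of each gene for TAZ-CAMTA1 against control with all 3 TAZ-CAMTA1 libraries (horizontal axis) and with replicates 1 and 3 only (vertical axis); the grey line marks equal values. Ifi44 and Ifit1 stay near the line at the lower left, while Bst2 and Ifi35 move from above 0 to below it.

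Per length the members covered a wide range in control, from 948 ± 71.9 TPM (SD) for Bst2, 292 ± 30.8 for Ifi27 and 264 ± 9.86 for Rsad2 down to 0.986 ± 0.164 for Mx1 and 0.850 ± 0.112 for Zbp1. With TAZ4A, Bst2 remained first at 2032 ± 72.2 TPM, followed by Rsad2 at 436 ± 13.5. Cxcl10 at 274 ± 6.73 and Ifi27 at 273 ± 4.59 did not differ beyond their spread there. With TAZ-CAMTA1, Bst2 was again first by its mean, at 1166 ± 369 TPM, and Ifi27 at 445 ± 88.8 stood above Rsad2 at 151 ± 43.7. These means include replicate 2. In CPM that library differed from the mean of replicates 1 and 3 by 0.767 log2 units for Ifi27 and -0.503 for Rsad2.

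The interferon genes themselves were near 0. Of 10 listed ligands 3 were in the table and none passed the filter. Ifnb1, interferon beta, had 0, 2 and 2 reads in the control libraries, 2, 4 and 1 with TAZ4A and 2, 2 and 0 with TAZ-CAMTA1. Ifne had 1, 4 and 2 reads in control, 5, 6 and 7 with TAZ4A and 9, 4 and 0 with TAZ-CAMTA1. In CPM its TAZ4A libraries lay above all controls, which held for 30.4% of all tested genes. Ifnz had at most 4 reads in any library. A difference in ligand RNA was not tested, because so few reads were found at this depth.

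Of 4 listed receptor chains of other interferon types 3 were in the table, and all 3 rose with TAZ-CAMTA1, where 16.8% of all tested genes did. Without replicate 2 all 3 rose as well, where 28.5% of all genes did. Ifngr1, a chain of the interferon gamma receptor, was 44.7, 40.1 and 40.4 CPM in control, 38.7, 39.9 and 41.1 with TAZ4A and 66.4, 63.6 and 68.6 with TAZ-CAMTA1 (0.66 ± 0.07, adjusted p = 0.00028; 0.69 without replicate 2). Ifngr2 rose by 0.65 ± 0.06 (adjusted p = 0.00012; 0.63 without replicate 2) and Il10rb, a chain shared with the interferon lambda receptor, by 0.52 ± 0.09 (adjusted p = 0.0031; 0.61 without replicate 2). With TAZ4A Il10rb fell (-0.60 ± 0.09, adjusted p = 0.0015) and the other two did not pass.

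Of 19 transducers, adaptors and regulators, 3 rose and 2 fell with TAZ4A, and 5 rose and 2 fell with TAZ-CAMTA1. Over all tested genes the shares were 13.2% and 11.7% with TAZ4A and 16.8% and 15.3% with TAZ-CAMTA1, so these TAZ4A counts lie near the background. The median differences were 0.075 and -0.027. Without replicate 2 the counts were 7 and 6 for TAZ4A and 7 and 6 for TAZ-CAMTA1, where between 28.1% and 32.3% of all genes passed in each direction. The rises with TAZ4A were those of Ube2l6, the conjugating enzyme for Isg15 (1.03 ± 0.09, adjusted p = 5.4e-05), Ikbke, a kinase upstream of Irf3 and Irf7 (0.99 ± 0.08, adjusted p = 4.5e-05), and Ticam1, the adaptor of Tlr3 (0.50 ± 0.07, adjusted p = 0.0013). Socs3, an inhibitor of cytokine receptors (-1.29 ± 0.13, adjusted p = 0.00015), and Irf8 (-0.80 ± 0.10, adjusted p = 0.00057) fell. With TAZ-CAMTA1 the rises of largest size were those of Ticam1 (0.97 ± 0.07, adjusted p = 4.3e-05; 0.94 without replicate 2), Irf5 (0.79 ± 0.13, adjusted p = 0.002; 0.70 without replicate 2) and Ikbke (0.69 ± 0.08, adjusted p = 0.00044; 0.67 without replicate 2). Tbk1, the kinase that activates Irf3 (-0.50 ± 0.10, adjusted p = 0.0054; -0.39 without replicate 2), and Socs3 (-0.46 ± 0.13, adjusted p = 0.028; -0.62 without replicate 2) fell.

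Of 32 further interferon-induced genes 31 passed the filter. With TAZ4A 20 rose and none fell, with a median of 0.55, and 6 rose and 3 fell with TAZ-CAMTA1, with a median of -0.05. Of all tested genes 13.2% rose and 11.7% fell with TAZ4A, and 16.8% rose and 15.3% fell with TAZ-CAMTA1, so the TAZ-CAMTA1 counts lie near the background. Without replicate 2 the counts were 23 higher and 2 lower for TAZ4A, where 28.1% and 30.3% of all genes passed. For TAZ-CAMTA1 they were 7 higher and 10 lower, where 28.5% and 32.3% passed, so these counts do not exceed the background. The largest rises with TAZ4A were those of Lgals3bp (2.40 ± 0.08, adjusted p = 1.6e-07), the nuclear body gene Sp100 (1.90 ± 0.13, adjusted p = 1.4e-05) and Trim30a (1.42 ± 0.16, adjusted p = 0.00027). With TAZ-CAMTA1 Lgals3bp rose by 1.10 ± 0.08 (adjusted p = 2.5e-05; 1.11 without replicate 2). Ifitm1, a gene of the membrane proteins that block viral entry, was counted among the 6, but only the TAZ-CAMTA1 libraries brought it past the filter on low values, so its levels are a description: 0.186, 0.209 and 0.157 CPM in control, 0.279, 0.380 and 0.276 with TAZ4A and 0.834, 2.32 and 0.916 with TAZ-CAMTA1. The genes that fell with TAZ-CAMTA1 were Ifi203 (-1.07 ± 0.15, adjusted p = 0.00095; -0.90 without replicate 2), Slfn5 (-0.82 ± 0.22, adjusted p = 0.021; -0.52 without replicate 2) and Phf11d (-0.81 ± 0.06, adjusted p = 4.6e-05; -0.81 without replicate 2). Ifi203 and Phf11d had risen with TAZ4A, by 1.03 and 0.83 (adjusted p = 0.0012 and 2.4e-05). Ifi203, Slfn5 and Trim30a belong to families of close copies, and their values are uncertain.

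Reads across annotated splice junctions give a count made from the same libraries without the gene counting. On the RPM scale the direction matched the gene table in 39 of 39 members for TAZ4A against control, in 38 of 39 for TAZ-CAMTA1 against control and in 39 of 39 between the constructs. The exception was Ifit3, with 3, 0 and 2 junction reads in control and 1, 3 and 3 with TAZ-CAMTA1. All TAZ4A libraries lay above all controls in 35 members, which held for 28.7% of 11271 tested genes with junction reads. All TAZ-CAMTA1 libraries lay below all controls in 15 members and above them in 7, against 15.5% and 15.2% of those genes. Usp18 had 86, 125 and 98 junction reads in control, 973, 1017 and 946 with TAZ4A and 97, 57 and 75 with TAZ-CAMTA1. On the RPM scale its TAZ-CAMTA1 and control libraries overlapped (exact two-sided permutation p = 0.3). In the authors' deposited table of edgeR comparisons, 29 of the 39 genes were higher and 1 lower with TAZ4A at a false discovery rate under 0.05, where 11.5% and 6.76% of the table's 17565 genes were. In the authors' deposited table, members numbering 6 were higher and 13 lower with TAZ-CAMTA1 than in control, against 13.4% and 8.64% of all genes. Of the 14 members called in opposite directions here, Stat2, Usp18 and Adar did not pass there with TAZ-CAMTA1. Their false discovery rates were 0.0761, 0.275 and 0.0527. Parp12 did not pass there with TAZ4A (false discovery rate 0.0891). In the authors' deposited table, members numbering 3 were higher and 34 lower with TAZ-CAMTA1 than with TAZ4A, against 14% and 13.4%.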

How the data were processed

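Poly-A RNA of 9 MS1 libraries, 3 per group, was sequenced after a stranded library kit, per the labels' protocols. The submitters' processing notes name bcl2fastq, FastQC, STAR, featureCounts, edgeR and the build mm10, with no roles or versions. The gene table's header names CPM, but the deposited values were entered as a signal scaled by the authors, because its columns sum to 976997 to 1028367; 100% of the values were whole reads within 0.01 once divided by the value of 1 read. The tests set for CPM were kept. TPM values were deposited by the authors for the same genes, and splice junction counts of STAR were deposited by the authors for each library. The authors' deposited comparisons hold log2 fold changes and p-values.

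A gene entered the tests if 3 or more libraries reached 0.5 CPM (12350 of 17565). Values were taken as log2(CPM + 0.5) and fitted with limma 3.58.1 (trend and robust) in R 4.3.3 on all 9 libraries, without a replicate block, with Benjamini-Hochberg adjustment over all genes and called at 0.05. A difference had a median standard error of 0.135, from between 21966004 and 34224715 reads per library. The fit was run on simulated counts in which every library had the same spread. No simulated library stood apart as TAZ-CAMTA1 replicate 2 did, so the run does not test the fit for such a library. Alternatives included edgeR 4.0.16 and DESeq2 1.42.0 on the recovered reads, other pseudocounts, filters and scalings, and leaving out each library. No 2 replicates agreed within sampling noise. Junction reads were compared with exact two-sided permutation tests. Member coordinates came from GENCODE vM21 on GRCm38, and promoters from RefSeq on GRCm38.p6.

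The 39 members and the other lists were chosen with earlier results of these data known. All members are named by role; of each other list, up to 3 genes in each direction that passed were named by size, with the ligands with a read. 1 gene of the other lists is not reported here. Transcript tables were not used here.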

Additional observations from a re-analysis of the deposited data

How the results depend on the processing

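The 3 comparisons with control or between constructs were repeated under 22 other settings (13 others and 9 that left out 1 library). Leaving out each library in turn gave 24 to 35 members higher and 0 to 1 lower with TAZ4A, 4 to 8 higher and 12 to 25 lower with TAZ-CAMTA1, and 3 to 4 higher and 30 to 35 lower with TAZ-CAMTA1 than with TAZ4A. Of all 12350 tested genes, 2101 to 7206 passed in either direction with TAZ4A in these fits. With TAZ-CAMTA1 2626 to 7516 passed, and 3236 to 7779 between the constructs. Members higher with TAZ4A and lower with TAZ-CAMTA1 numbered 9 (without control replicate 1) to 24 (without TAZ-CAMTA1 replicate 2, where 5.48% of all tested genes met the rule). They numbered 25 with library quality weights, which gave that TAZ-CAMTA1 library a weight of 0.0287. With these weights 7432 of 12350 tested genes passed for TAZ4A against control and 7255 for TAZ-CAMTA1 against control. In the main fit 3077 and 3966 passed. The share of all genes that met the rule with the weights was not counted. Without control replicate 2 or control replicate 3 the members higher with TAZ-CAMTA1 were 4, where 1598 and 1515 of the 12350 tested genes were. A fit of only the 6 libraries compared gave 4 higher and 11 lower with TAZ-CAMTA1, where 1453 and 992 of the tested genes were. Quantile normalization gave 5 higher, where 1809 of the tested genes were. The single member lower with TAZ4A became 0 with TPM and 2 with library weights, where 1093 and 3859 of the tested genes were lower. Called in all 22 settings were 23 of 29 members higher with TAZ4A, 10 of 17 lower and 4 of 8 higher with TAZ-CAMTA1, and 29 of 33 lower with TAZ-CAMTA1 than with TAZ4A. The share of all tested genes called in every setting was not counted. Differences that changed sign were, for TAZ-CAMTA1 against control, Bst2 (-0.023 without replicate 2, up to 0.575 without replicate 3), Dtx3l (0.024 with weights; leaving out 1 library, -0.392 to 0.014), Parp14 (0.021 with weights; -0.39 to 0.017) and Ifi35 (-0.021 with TPM, -0.228 with weights; -0.236 to 0.19, and -0.002 without control replicate 3). For Isg20 between the constructs the value was 0.001 with edgeR and 0.000 with DESeq2 on recovered reads, and -0.304 to 0.118 when 1 library was left out. None of these had passed in the direction that was lost, and the cause was not tested. With the replicate number as a block the counts were 29 and 1, 8 and 17, and 4 and 34, and 14 for the members that moved oppositely. Of the tested genes 1551 and 1339, 2067 and 1814, and 2365 and 2254 passed in that fit, in the same order. The same-numbered libraries deviated together with correlations from -0.12 to 0.52, control replicate 1 deviated most with TAZ-CAMTA1 replicate 3, and the numbers were not taken as pairs. The relation with transcript length did have the same sign in replicate 2, and in replicate 3, of every group. The count of members whose mean junction reads were higher or lower stayed within 1.5 times its value in every setting, at 36 to 37 higher with TAZ4A and 27 to 29 lower with TAZ-CAMTA1. The same count was not made for all genes. Depth limits the junction reads of Adar and Ifit3, Zbp1, Mx1 and the interferon genes.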
